A study of Rattus norvegicus with 6 samples.

Results

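RK3E cells are an immortal line that was derived from rat kidney epithelium. The cells compared here are RK3E cells transformed by GLI1 and parental RK3E cells, all grown in DMEM with serum, and the comparison covers 4 of the 6 arrays of the study. Both GLI1 arrays whose titles do not name clone II were taken: 1 is titled only as transformed by GLI1 (replicate 1), with no clone stated, and 1 is titled clone I (replicate 2). They were set against the 2 parental arrays. The other 2 arrays, both of clone II, served to estimate the spread and for a separate test. By the labels the transformed lines were grown from single foci after transfection of a GLI1 expression construct. The promoter of the construct, whether the first array also comes from clone I, and whether parental cells were mock-transfected are not given in the sources used here. Each array carried 31042 probe sets besides controls, and 18625 of them passed a filter on low signal and were tested.

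GLI1 is a transcription factor that carries the Hedgehog signal to DNA through its zinc fingers. When a Hedgehog ligand is bound at the membrane, the receptor system frees Smoothened, and GLI factors then enter the nucleus and raise their target genes, among them GLI1 itself and the decoy receptor gene Hhip. Sustained GLI1 activity can transform cultured cells, and activation of this pathway drives one kind of medulloblastoma, the tumour that the study set beside these profiles. Tumour samples were not analysed here.

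The arrays were alike in scale, with medians of 571 to 696 signal units on the 4 arrays. The GAPDH 3'/5' ratio, a measure of RNA integrity that grows as RNA degrades, was 2.09 and 1.45 on the array without a named clone and on clone I, and 3.66 and 1.43 on parental replicates 1 and 2. The correlation of log2 signals was 0.919 for the GLI1 pair, 0.930 for the parental pair and 0.882 to 0.886 across the groups, over probe sets, which are not independent replicates. Of 17 kidney epithelium markers 15 had a probe set and 3 were tested, and the nephron regulators Pax2 and Pax8 lay below the filter. Cdh1, the E-cadherin gene of epithelia, was also below the filter, while the keratin gene Krt8 gave a log2 signal of 10.08 and 10.40 and the mesenchymal filament gene Vim 15.96 and 16.38 on the parental arrays. The titles call the arrays biological replicates without describing separate cultures, and the parental samples carry the same transfection text in their protocol, so p-values measure the spread between these arrays, whose number limits every value below. With 2 arrays a side an exact permutation test cannot go below p = 0.333, and the tests below therefore come from the fit across all probe sets.

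In the cells of these 2 GLI1 arrays, 1038 of 18625 probe sets rose (5.57%) and 1272 fell (6.83%) at an adjusted p under 0.05, and 16315 did not pass. Counted as genes, with the brightest probe set of each, 752 of 10240 rose (7.34%) and 764 fell (7.46%). The count of every gene list below is to be read against these shares. The median log2 difference over all genes was 0.07. Here and below "rose", "fell" and "called" refer to limma's adjusted p under 0.05, a difference is a log2 difference of GLI1 minus parental signal with its SE, and values of 4 arrays are given in the order no clone named, clone I, parental replicate 1, parental replicate 2. The median called rise was 2.57-fold and the median called fall 2.95-fold, and the smallest differences called were 0.66 and 0.69. More than 4-fold changes made up 262 of the rises (25.2%) and 408 of the falls (32.1%), and 48 rises and 76 falls passed 16-fold. In every called probe set both GLI1 arrays lay on 1 side of both parental arrays (0 overlapped). This adds no support, since genes that did not pass often separated too. Of 28 tested TGF-beta and BMP genes 26 separated, though 12 did not pass. Of 16 tested cholesterol synthesis genes 7 separated and 0 were called. The share over all probe sets is not given here.

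These counts rest on each of the 4 arrays. Without parental replicate 1, 315 rose and 317 fell, and without parental replicate 2, 390 rose and 535 fell. Without the array with no clone named 684 rose, and without clone I 688 rose, while the falls stayed within 1.5 times of the full count. When parental replicate 1 and clone II replicate 1, which had the highest GAPDH ratios (3.66 and 7.52), were left out, 287 rose and 312 fell.

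**Figure D1:**
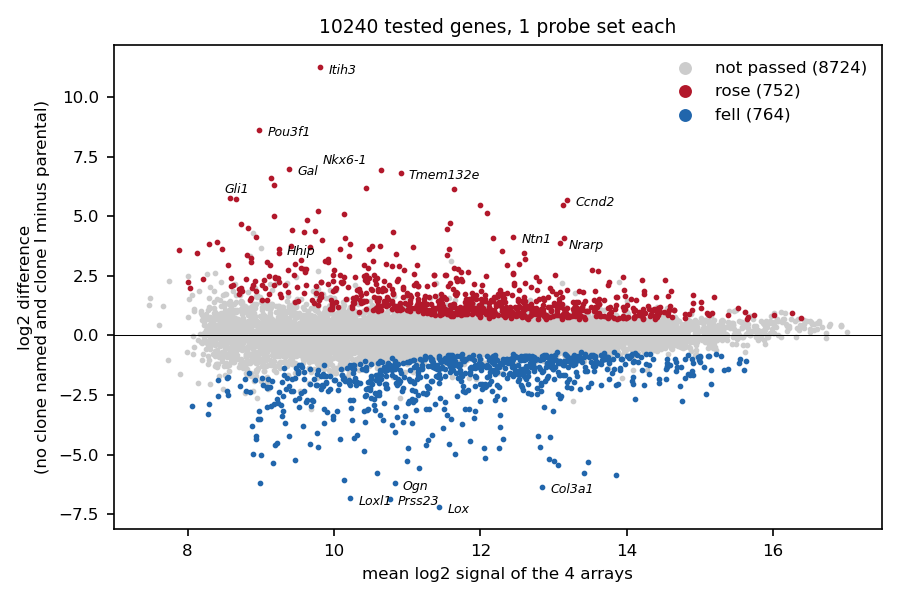
Log2 difference (mean of the array with no clone named and clone I, minus the mean of both parental arrays) against the mean log2 signal of the 4 arrays, 1 point per tested gene. Red points rose (752), blue points fell (764) and grey points did not pass; Itih3 and Pou3f1 lie highest and Lox lowest.

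The Hedgehog pathway itself changed at 3 genes. Gli1, the gene of the transforming factor, gave a log2 signal of 13.15 and 11.71 against 5.17 and 6.50. Both GLI1 arrays were far above both parental arrays, and the array with no clone named was the highest of all 6. The difference was 6.59 (SE 0.56, adjusted p = 0.000391), or 96.6-fold. With 32 added to each signal before the log, which weighs dim signals less, the ratio was 60.8. Whether the probe set reads the introduced or the rat transcript was not tested. Hhip, whose product binds and holds Hedgehog ligands at the cell surface, stood at 11.38 and 10.74 against 7.68 and 7.17, a rise of 12.4-fold (SE of the difference 0.38, adjusted p = 0.000954).

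Dhh, one of the 3 Hedgehog ligand genes, was the third to rise. Its log2 signal was 10.42 and 10.38 against 7.89 and 6.77, so that both GLI1 arrays were nearly equal and lay above the dim parental signals (8.38-fold, SE 0.49, adjusted p = 0.00573). On the clone II arrays it was 8.43 and 8.41, and the difference between clone II and these arrays did not pass (adjusted p = 0.23). Of 13 tested genes of the pathway list 3 rose, 0 fell and 10 did not pass, with a median difference of 0.11. Smo, the signal-transducing receptor gene, gave 12.72 and 12.43 against 12.70 and 12.75, a difference of -0.15 (adjusted p = 0.684). The GLI2 gene stood at 11.88 and 11.92 against 11.86 and 11.81 and its difference was 0.06 (0.88). Neither passed the test, which does not show equal levels. The other 8 members that did not pass ranged from -0.68 for Disp1, a ligand-release gene, to 0.63 for the ciliary motor gene Kif3a. Sufu (0.10), Boc (0.01), Stk36 (-0.03), Kif7 (0.22) and Spop (0.11) lay between and change sign when single arrays are left out, and Stk36 also when each array is centred on its median or quantile normalised. Ift88, a gene of ciliary transport, gave 0.28. Cdon, Gas1, Shh and Ihh were below the filter.

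Among tested genes most of the largest rises lay outside the pathway. Sox2, which lay below the filter and was not ranked, differed by 7.05 without the filter. Itih3, a gene of the inter-alpha-trypsin inhibitor family whose products join to hyaluronan, gave 16.32 and 14.54 against 3.63 and 4.76. It was among the dimmest signals in parental cells and among the brightest on the array with no clone named, a difference of 11.24 (SE 0.57, adjusted p = 2.98e-05). The ratio of 2411 fell to 863 with 32 added, and the difference ran from 10.35 to 12.12 with single arrays left out. Pou3f1, a POU-domain factor gene of neural and Schwann cell lineages, stood at 13.80 and 12.80 against 5.18 and 4.15, a difference of 8.63 (SE 0.52, adjusted p = 7.40e-05; 174-fold with 32 added). Its clone II signals of 9.03 and 9.64 lay between the groups.

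The largest rises also included the transcription factor genes Nkx6-1, Olig1 and Hmx1. Nkx6-1, a homeobox gene of the ventral neural tube and the pancreas, went from 7.02 and 7.33 on the parental arrays to 14.47 and 13.74 (121-fold, SE 0.29, adjusted p = 1.55e-05). Olig1, a helix-loop-helix factor gene of oligodendrocytes, gave 13.99 and 13.06 against 6.91 and 7.80 (72.2-fold, adjusted p = 0.000482). The homeobox gene Hmx1 gave 11.75 and 11.18 against 5.47 and 5.94 (54.2-fold, 33.8-fold with 32 added, adjusted p = 0.00266). In each both GLI1 arrays were bright and both parental arrays dim. This pattern adds no support, since these genes were picked for a large rise and a bright signal in the higher group. The neuropeptide gene Gal, whose product galanin acts as a transmitter, gave 13.39 and 12.38 against 4.59 and 7.19 (128-fold, 76.2-fold with 32 added, adjusted p = 0.00115). Its 2 parental signals were themselves far apart, and without parental replicate 1 or another single array the difference ran from 5.70 to 8.29. Ntng1, a netrin-like axon guidance gene, gave 11.60 and 11.45 against 7.74 and 3.88, with parental signals still further apart (5.72, SE 1.01, adjusted p = 0.0092; 3.79 to 7.65 with single arrays left out).

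Of the other large rises, Tmem132e, a transmembrane protein gene, gave 14.71 and 13.93 against 7.10 and 7.90 (113-fold, adjusted p = 3.02e-05). The imprinted non-coding RNA gene H19 gave 15.06 and 14.36 against 8.05 and 9.07 (71.0-fold, adjusted p = 8.50e-05). The zinc finger gene Zfp423, a regulator of adipose and cerebellar development, gave 12.80 and 11.88 against 7.21 and 4.86 (79.0-fold, 49.7-fold with 32 added, adjusted p = 0.0012). None of its 3 other tested probe sets passed, at differences of 0.33, 0.29 and 0.38 (adjusted p = 0.751, 0.767 and 0.665). Without single arrays its difference ran from 5.13 to 7.48. Ccnd2, the cyclin D2 gene, was measured well above the dim range in every array, at 16.33 and 15.74 against 10.32 and 10.34. Its parental signals were the same to within 0.1 log2 and its GLI1 signals were both higher, by 5.70 (SE 0.24, 52.0-fold, adjusted p = 1.55e-05).

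**Figure D2:**
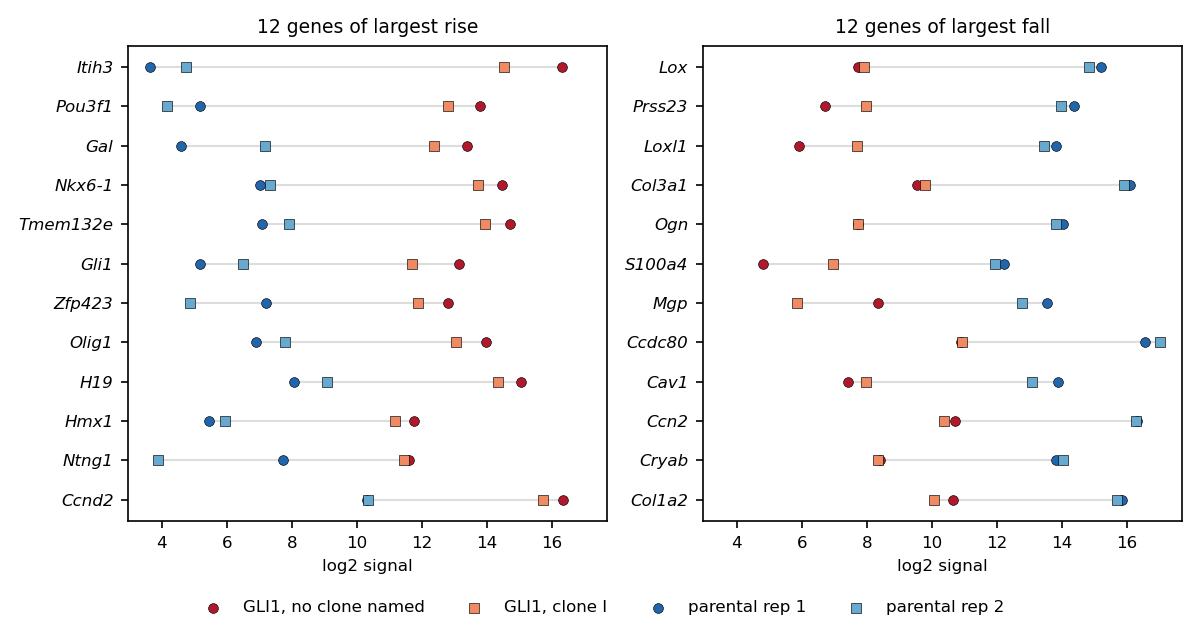
Log2 signal on the array with no clone named, clone I and both parental arrays for the 12 genes of largest rise (left) and of largest fall (right), 1 point per array, the grey line joining the lowest to the highest. In each of these 24 genes the GLI1 points do not overlap the parental points, which the choice of genes required. Gal, Zfp423 and Ntng1 have parental points far apart, and S100a4 and Mgp have GLI1 points far apart.

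The upstream sequence of the named genes was searched for letters that GLI factors are known to bind. RefSeq windows of the GRCr8 assembly were available for 97 of the named genes, and the 250 bases before the start were searched on both strands for the consensus GACCACCCA and for its core CCACCCA, which the consensus contains. Gal, which rose, held the consensus, on the opposite strand. Itih3, Nrarp and Igfbp6, all of which rose, held the core, Itih3 and Igfbp6 on both strands. The core was also held by Gins1, Col9a2 and Tcf7, which rose, and by Bhlhe40 and Rtp3, which did not pass. Gal, Itih3, Nrarp and Igfbp6 were picked from the risen genes with a match. They are shown with the matched letters in capitals, in the direction of transcription: Gal at chr1:210084573-210084822 (minus strand), Itih3 at chr16:6123375-6123624 (minus strand), Nrarp at chr3:28390495-28390744 (plus strand) and Igfbp6 at chr7:135154669-135154918 (plus strand).
Gal: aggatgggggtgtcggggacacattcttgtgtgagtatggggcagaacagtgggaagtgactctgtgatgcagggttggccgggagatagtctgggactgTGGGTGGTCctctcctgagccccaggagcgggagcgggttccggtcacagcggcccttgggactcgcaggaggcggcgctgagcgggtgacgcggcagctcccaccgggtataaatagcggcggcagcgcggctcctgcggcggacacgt
Itih3: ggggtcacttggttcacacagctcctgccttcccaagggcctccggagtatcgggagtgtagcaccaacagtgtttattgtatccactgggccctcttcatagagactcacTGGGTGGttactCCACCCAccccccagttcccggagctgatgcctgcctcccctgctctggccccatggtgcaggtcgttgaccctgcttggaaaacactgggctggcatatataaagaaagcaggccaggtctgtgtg
Nrarp: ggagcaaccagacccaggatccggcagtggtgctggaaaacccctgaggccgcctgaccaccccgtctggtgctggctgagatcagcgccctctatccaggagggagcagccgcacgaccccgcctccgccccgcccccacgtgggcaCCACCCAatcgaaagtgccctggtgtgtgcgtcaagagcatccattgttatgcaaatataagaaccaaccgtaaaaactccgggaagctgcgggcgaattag
Igfbp6: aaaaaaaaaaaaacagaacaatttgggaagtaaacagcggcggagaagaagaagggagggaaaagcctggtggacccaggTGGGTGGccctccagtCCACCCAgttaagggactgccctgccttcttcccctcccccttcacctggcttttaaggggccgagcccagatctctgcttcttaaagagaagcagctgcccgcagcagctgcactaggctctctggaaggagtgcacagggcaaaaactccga

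Across all RefSeq windows, untested genes included, the consensus stood in 113 of 33469 (0.338%). Among tested genes with a window it stood in 23 of 8577 (0.268%). By call it stood in 4 of 602 risen genes (0.664%), 1 of 625 fallen genes (0.160%) and 18 of 7350 that did not pass (0.245%). The core stood in 2654 of all windows (7.93%), in 693 of the tested genes (8.08%), in 56 of the risen genes (9.30%) and in 56 of the fallen genes (8.96%). Of the named genes the core stood in 7 of 43 that rose, 0 of 35 that fell and 2 of 19 that did not pass. A match is a description of letters, not of binding. The binding of GLI1 was not measured here.

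Among tested genes the 12 largest falls included Lox, Loxl1, Col3a1, Col1a2, Ogn and Mgp of the matrix list. Postn, which lay below the filter and was not ranked, differed by more (-11.23 without the filter). Lox, the lysyl oxidase gene, whose product links collagen fibres, gave 7.74 and 7.93 against 15.22 and 14.85. Both GLI1 arrays were near the dim limit while both parental arrays were bright, a difference of -7.20 (SE 0.29, 147-fold, adjusted p = 1.55e-05). Its relative Loxl1 gave 5.92 and 7.70 against 13.83 and 13.45 (114-fold, 86.1-fold with 32 added, adjusted p = 0.00198; -7.72 to -5.94 with single arrays left out). The fibrillar collagen gene Col3a1 gave 9.55 and 9.78 against 16.11 and 15.93 (81.9-fold, adjusted p = 2.33e-05). Col1a2, which encodes a chain of type I collagen, gave 10.64 and 10.07 against 15.85 and 15.70 (43.0-fold, 2.23e-05). Ogn, a small leucine-rich proteoglycan gene, gave 7.72 and 7.74 against 14.03 and 13.83, with nearly equal signals within each pair (difference -6.21, SE 0.24, 73.8-fold, adjusted p = 1.55e-05). These 5 genes, from Lox to Ogn, were bright in both parental arrays, at log2 signals of 13 or more. Their choice as large falls with a bright signal in the higher group favoured this.

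Mgp, an inhibitor of calcification, gave 8.34 and 5.86 against 13.54 and 12.78 (66.5-fold, adjusted p = 0.002), with GLI1 arrays far apart and a range of -7.29 to -4.82 with single arrays left out. Ccdc80, a matrix-associated protein gene, was among the brightest in parental cells, at 10.90 and 10.94 against 16.56 and 17.03 (58.6-fold, 2.33e-05). Ccn2, the connective tissue growth factor gene and a target of YAP and serum response factor, gave 10.71 and 10.37 against 16.33 and 16.28 (54.5-fold, 0.000214). Cav1, the caveolar coat gene, gave 7.41 and 7.98 against 13.87 and 13.08 (54.9-fold, 0.000182). The small heat shock protein gene Cryab gave 8.41 and 8.34 against 13.83 and 14.04 (47.1-fold, 2.50e-05). The serine protease gene Prss23 gave 6.70 and 7.98 against 14.38 and 13.98 (114-fold, 9.12e-05; -7.48 to -6.20 with single arrays left out), and the calcium-binding protein gene S100a4 gave 4.81 and 6.98 against 12.22 and 11.95 (72.9-fold, 44.8-fold with 32 added, 0.00146; -7.27 to -5.11 likewise). These 24 genes were picked as the largest called differences in the same data, so their calls with single arrays left out add no support.

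The literature names many targets of GLI factors. Of 24 tested ones, 8 rose, 3 fell and 13 did not pass, and the median difference was 0.58. Besides Ccnd2 and Hhip, the genes that rose were Spp1, Foxf1, Snai1, Igfbp6, Ccnd1 and Foxd2. Spp1, the osteopontin gene, gave 14.83 and 14.64 against 8.99 and 9.53 (44.4-fold, adjusted p = 0.000378). Snai1, a repressor of epithelial genes, gave 12.03 and 11.74 against 8.89 and 9.20 (7.14-fold, 0.000561). Igfbp6, which encodes a binding protein of IGF2, gave 12.15 and 11.61 against 8.61 and 9.27 (7.69-fold, 0.00192). The cytokine gene Tgfb3, the cyclooxygenase gene Ptgs2 and the junction plaque gene Jup fell. Some of these targets were reported from GLI1-transformed cells such as RK3E, and the list is no independent evidence of direction. Foxd2 lost its call without the array with no clone named (0.0759), parental replicate 1 (0.108) or parental replicate 2 (0.1), Ccnd1 without the array with no clone named (0.0529) or parental replicate 1 (0.0725), Jup without parental replicate 1 (0.0681) and Ptgs2 without parental replicate 1 (0.159) or parental replicate 2 (0.0832). With single arrays left out the rises numbered 6 to 9, and the falls were 1 without parental replicate 1 and 5 without clone II replicate 2 or with the 4 arrays fitted alone.

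Of 13 tested marker genes of Sonic hedgehog medulloblastoma, 6 rose, 1 fell and 6 did not pass, with a median difference of 1.10. The genes that rose were Gli1, Hhip, Ccnd2, Ccnd1, Mdk and Igf2, of which Gli1 is the transforming gene itself. Mdk, the gene of the heparin-binding growth factor midkine, gave 12.19 and 12.63 against 8.10 and 9.18 (13.7-fold, adjusted p = 0.0036). Its clone II signals were 9.85 and 8.39, within the range from the parental arrays to the GLI1 arrays, and that difference did not pass (0.0859). Eya1, a developmental phosphatase gene, gave 9.19 and 8.999 against 12.20 and 11.81 and fell (7.53-fold, 0.00255). Mycn, an oncogene of these tumours, gave 8.97 and 8.08 against 10.37 and 10.09, a difference of -1.71 that did not pass (0.0744). Atoh1 had no probe set with 1 gene name, and 7 members lay below the filter, which uses the mean of all 6 arrays. One of these, Sox2, a stem cell factor gene of the nervous system, gave 12.33 and 12.65 against 3.89 and 6.99, and 7.62 and 6.27 on clone II. It was singled out after its values were seen; without the filter its difference was 7.05, adjusted p = 0.00377. The call of Igf2 was lost without the array with no clone named (0.112), parental replicate 1 (0.181), parental replicate 2 (0.174), clone II replicate 1 (0.062) or clone II replicate 2 (0.0594), and that of Ccnd1 without the array with no clone named (0.0529) or parental replicate 1 (0.0725). The fall of 1 gene became 2 without clone II replicate 2 or with the 4 arrays fitted alone.

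In the G1 machinery the cyclin genes Ccnd1 and Ccnd2 rose and the brakes Rb1, Cdkn2a and Cdkn2c fell, while Ccnd3 fell and the inhibitor gene Cdkn1c rose. Of its 14 tested genes 3 rose (Ccnd2, Ccnd1 and Cdkn1c), 4 fell (Rb1, Cdkn2a, Cdkn2c and Ccnd3) and 7 did not pass, with a median of 0.23. Ccnd1, the cyclin D1 gene, gave 12.14 and 10.76 against 7.59 and 9.03 (8.81-fold, adjusted p = 0.0103). Its call was lost without the array with no clone named (0.0529) or parental replicate 1 (0.0725), and its 2 other probe sets rose (differences of 2.55 and 4.43, adjusted p = 0.0225 and 0.00468). Rb1, the retinoblastoma gene that restrains entry into S phase, gave 10.11 and 9.94 against 12.83 and 12.17, a fall of 5.56-fold (0.00201). Cdkn2c, an inhibitor of the kinases bound by D-type cyclins, gave 11.99 and 11.90 against 13.25 and 13.38 (2.58-fold, 0.00354). Cdkn2a, the locus of p16 and ARF, gave 12.40 and 13.28 against 14.87 and 14.47 (3.55-fold, 0.00654), a call lost without parental replicate 1 (0.0713). Ccnd3, the third D-type cyclin gene, fell with them (difference -0.96, 0.0366), a call lost without the array with no clone named (0.0747), clone I (0.1), parental replicate 1 (0.167) or parental replicate 2 (0.168). The rise of Cdkn1c was lost without the array with no clone named (0.15), parental replicate 1 (0.255) or parental replicate 2 (0.0549). Without parental replicate 1, 1 gene of the list rose and 2 fell.

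Replication and mitosis genes differed less. Of 24 tested replication genes 4 rose, 0 fell and 20 did not pass (median 0.47), and of 24 mitosis genes 5 rose, 0 fell and 19 did not pass (median 0.37). Cdc45, a subunit of the replicative helicase, gave 15.03 and 14.77 against 13.79 and 13.86 (2.10-fold, adjusted p = 0.0167). Orc1, an origin recognition gene, gave 11.63 and 12.57 against 10.81 and 10.20 (3.03-fold, 0.0208). Aurkb, a mitotic kinase gene, gave 13.37 and 14.09 against 12.35 and 12.60 (2.38-fold, 0.0184). Nusap1, a spindle gene, gave 14.74 and 14.81 against 13.86 and 13.93 (1.84-fold, 0.0178), and Mki67, the gene of the proliferation antigen Ki-67, gave 14.81 and 14.80 against 14.71 and 14.65 with a difference of 0.12 that did not pass (0.696). Without the intensity trend, which lets the spread vary with signal, 0 genes of both lists rose, and 3 mitosis genes rose with median centring or with no filter. A 2-fold minimum left 2 replication genes and 1 mitosis gene. These calls are near the threshold: both lists held 0 risen genes without either parental array. Without clone I 1 replication gene and 0 mitosis genes rose, and without the array with no clone named 2 and 6. The call of Cdc45 was lost without the array with no clone named (0.0659), parental replicate 1 (0.118) or 2 (0.0779). Orc1, Aurkb and Nusap1 lost theirs without clone I (0.0848, 0.0646 and 0.0606), parental replicate 1 (0.0586, 0.138 and 0.127) or parental replicate 2 (0.123, 0.0678 and 0.0822).

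Extracellular matrix genes fell and none of them rose. Of 28 tested genes 17 fell, 0 rose and 11 did not pass, against 7.46% fallen and 7.34% risen among all genes, and the median difference was -1.93 against 0.07. The fibronectin gene Fn1 gave 13.38 and 13.39 against 16.10 and 16.16 (6.71-fold, adjusted p = 0.000391). Col1a1, the other type I collagen chain, gave 11.11 and 9.86 against 15.21 and 15.11 (25.6-fold, 0.000755), and Col12a1, a collagen gene of fibril surfaces, gave 8.17 and 8.30 against 12.54 and 12.27 (18.0-fold, 0.00103). In each both GLI1 arrays lay below both parental arrays. The members that did not pass included the basement membrane collagens Col4a1 (0.43) and Col4a2 (0.49) and all 3 measured type VI collagen genes, Col6a1 (0.99), Col6a2 (0.53) and Col6a3 (-0.03). Sparc, a collagen-binding glycoprotein gene, had a difference of -2.77 and an adjusted p of 0.0534. Below the filter lay Postn, the periostin gene of fibrous tissue, at 4.37 and 2.87 against 15.13 and 14.57 (-11.23, adjusted p = 0.00019 without the filter), and Tnc, the tenascin C gene, at 7.06 and 4.88 against 11.17 and 10.88 (-5.06, adjusted p = 0.0123), both singled out after their values were seen. With single arrays left out the falls numbered 12 to 18, and 2 matrix genes rose without clone I. With median centring 1 matrix gene rose. Of the 28 genes 22 had a higher signal on the array with no clone named than on clone I, as had 5395 of all 10240 genes.

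Fibroblast markers were tested too, and the matrix list holds all of the tested ones but Pdgfra. Of 5 tested markers 3 fell (Col1a1, Col3a1 and Ogn), and Pdgfra (0.53) and Fbln1 (0.84) did not pass. The summed signal of all 9 measured markers was 16337 and 11380 on the GLI1 arrays and 132319 and 118809 on the parental arrays. That sum mostly reflects the bright genes that fell, since Col3a1 alone gave 70960 and 62240 on the parental arrays. Thy1, Dpt, Lum and Dcn were below the filter. Without the filter Dpt (1.37), Lum (0.78) and Dcn (0.45) were higher and Thy1 (-0.39) lower, and none of them passed. In bulk RNA fewer cells of a type and less RNA per cell cannot be told apart, and the part of cell composition in the matrix result was not tested. Some cartilage genes went the other way: of 5 tested, Col9a3, Col9a2 and Comp rose, Matn2 fell and Acan did not pass. Col9a3, a collagen gene of cartilage fibrils, gave 13.62 and 11.75 against 7.71 and 7.46 (34.3-fold, adjusted p = 0.00179). Col9a2 gave 13.24 and 12.38 against 10.61 and 10.49 (4.80-fold, 0.00245). Comp gave 10.18 and 9.40 against 6.94 and 7.86 (5.25-fold, 0.0193) and lost its call without the array with no clone named (0.088) or parental replicate 1 (0.128). The fall of Matn2 (-1.86, 0.0221) was lost without clone I (0.0929), parental replicate 1 (0.182) or 2 (0.0658). Col2a1, Col9a1, Col11a1 and 5 other members were below the filter. Without the filter Col9a1 (3.18), Matn1 (1.24), Chad (0.62), Col2a1 (0.28) and Hapln1 (0.16) were higher. Col11a1 (-2.05), Col10a1 (-1.035) and Col11a2 (-0.07) were lower, and none of these members passed.

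Of 18 tested matrix proteases and inhibitors 11 fell, 0 rose and 7 did not pass, with a median of -1.40. Among all genes 7.46% fell and 7.34% rose. Mmp14, a membrane-bound collagenase gene, gave 13.54 and 13.35 against 15.65 and 15.23 (3.99-fold, adjusted p = 0.00244). Plat, the tissue plasminogen activator gene, gave 12.00 and 12.27 against 14.64 and 14.06 (4.65-fold, 0.0012). Mmp23 gave 10.02 and 10.09 against 12.54 and 12.44 (5.41-fold, 0.000755), while its 2 other probe sets did not pass (differences of -0.98 and -0.55, adjusted p = 0.0909 and 0.548). The inhibitor genes Timp1 (-2.16, 0.00537), Timp2 (-0.99, 0.0233) and Serpine2 (-3.02, 0.00804) fell as well. Timp2 lost its call without clone I (0.087), parental replicate 1 (0.135) or parental replicate 2 (0.111), and Serpine2 without parental replicate 1 (0.102). Leaving out parental replicate 1 left 5 falls, and leaving out parental replicate 2 left 7.

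Contractile and mesenchymal genes fell, and Snai1 rose among them. Of 21 tested genes 16 fell, 1 rose and 4 did not pass (median -2.12). Tagln, the transgelin gene of smooth muscle, gave 9.19 and 9.79 against 14.30 and 15.00 (35.8-fold, adjusted p = 0.00514). The tropomyosin gene Tpm2 gave 12.33 and 12.13 against 14.47 and 14.49 (4.75-fold, 0.00059). Vim fell 4.13-fold (0.012) from its signals of 15.96 and 16.38 on the parental arrays, a call lost without clone I (0.065), parental replicate 1 (0.0587) or parental replicate 2 (0.0799). The N-cadherin gene Cdh2 fell by 2.14 (0.00244), and the repressors of epithelial genes Zeb1 and Zeb2 fell by 1.10 (0.0485) and 1.11 (0.0292), opposite to Snai1. Zeb1 lost its call without the array with no clone named (0.163), clone I (0.0815), parental replicate 1 (0.287) or parental replicate 2 (0.0887), and Zeb2 without clone I (0.0941), parental replicate 1 (0.191) or parental replicate 2 (0.104). Without parental replicate 2 the falls numbered 10, and without parental replicate 1 they numbered 12.

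Epithelial junction and keratin genes went both ways: 4 of 14 tested rose, 2 fell and 8 did not pass (median 0.03). Krt8, a keratin gene of simple epithelia, gave 12.06 and 12.57 against 10.08 and 10.40 (4.21-fold, adjusted p = 0.00359). Its partner Krt18 was below the filter. Epcam, an epithelial adhesion gene, gave 11.09 and 10.90 against 8.77 and 8.92 (4.43-fold, 0.00584), a call lost without parental replicate 1 (0.0544). The integrin gene Itga6 gave 13.90 and 13.51 against 12.55 and 12.62 (2.17-fold, 0.0124) and lost its call without parental replicate 1 (0.101) or 2 (0.0675). None of its 3 other probe sets passed, at differences of -0.43, 0.49 and 0.93 (adjusted p = 0.601, 0.469 and 0.0614). Cldn1 also rose (1.75, 0.0416), a call lost without the array with no clone named (0.142), clone I (0.0838), parental replicate 1 (0.208) or parental replicate 2 (0.109). Jup, the plakoglobin gene, gave 12.18 and 11.99 against 13.76 and 13.46 and fell (2.88-fold, 0.00544), a call lost without parental replicate 1 (0.0681). The desmoplakin gene Dsp fell by 1.01 (0.0206) and lost its call without clone I (0.0751), parental replicate 1 (0.13) or 2 (0.103). Without parental replicate 1, 1 gene of the list rose and 0 fell. Without parental replicate 2, 2 rose and 1 fell, and without clone I or without the intensity trend 1 fell.

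TGF-beta and BMP genes were mostly lower. Of 28 tested 14 fell, 2 rose and 12 did not pass (median -1.10). Among ligands, Tgfb3 gave 8.70 and 8.02 against 13.80 and 13.49 (39.0-fold lower, adjusted p = 0.000151) and Tgfb2 gave 9.78 and 9.92 against 13.24 and 13.48 (11.4-fold lower, 0.00065). Bmp2 and Bmp6 also fell, while Bmp7, a ligand of kidney and bone development, gave 13.38 and 13.42 against 9.52 and 9.999 and rose 12.5-fold (0.000214). Both of its GLI1 signals lay above both parental ones. Among targets, Id2, an inhibitor of helix-loop-helix factors, gave 9.73 and 9.69 against 12.95 and 12.68 (8.60-fold lower, 0.000438) and Id3 and the inhibitory Smad genes Smad6 and Smad7 fell. Id4 gave 12.85 and 13.59 against 11.77 and 10.88 and rose (3.71-fold, 0.00937), a call lost without clone I (0.051) or parental replicate 2 (0.059). One of its 3 other probe sets did not pass (difference 1.52, adjusted p = 0.0559). The receptor genes Tgfbr1 (0.42) and Tgfbr3 (0.48) and the signal transducers Smad2 (0.32) and Smad4 (-0.08) did not pass. The receptor gene Bmpr2 and the transducer gene Smad1 were among the falls, and both calls were lost with single arrays left out. The call of Smad6 was lost without parental replicate 1 (0.0843) or parental replicate 2 (0.0959). Leaving out parental replicate 1 left 8 falls. Leaving out parental replicate 2 left 9 falls and 1 rise.

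Of 22 tested Wnt genes 3 rose, 4 fell and 15 did not pass (median -0.52), against 7.34% risen and 7.46% fallen among all genes. The receptor gene Fzd1 gave 11.55 and 11.24 against 14.67 and 14.49 (9.08-fold lower, adjusted p = 0.00015), and Fzd4 and Fzd8 fell too. The secreted antagonists moved apart: Sfrp4 gave 6.64 and 7.06 against 12.09 and 12.10 (37.9-fold lower, 0.00149), and Wif1 gave 15.48 and 14.88 against 11.73 and 10.48 (16.9-fold higher, 0.000755). Tcf7, a nuclear partner of beta-catenin, gave 12.03 and 11.73 against 10.07 and 10.31 (3.23-fold higher, 0.00801), a call lost without parental replicate 1 (0.0754), and its relative Lef1 rose by 1.32 (0.0257), a call lost without the array with no clone named (0.102), parental replicate 1 (0.179) or parental replicate 2 (0.0724). Fzd8 lost its call without parental replicate 1 (0.0523). The feedback gene Axin2 gave 10.45 and 10.56 against 9.28 and 8.81 and did not pass (0.052). The rises numbered 1 without parental replicate 1.

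Of 13 tested Notch genes 3 rose, 2 fell and 8 did not pass (median 0.17). Among all genes 7.34% rose and 7.46% fell. Nrarp, a feedback inhibitor of Notch, gave 15.03 and 15.03 against 11.12 and 11.18, with nearly equal signals within each pair, and rose 14.7-fold (SE 0.19, adjusted p = 2.50e-05). Its 2 other probe sets rose too, by 3.84 and 2.95. The receptor gene Notch1 gave 13.00 and 12.40 against 10.48 and 10.49 (4.65-fold, 0.00365), and the ligand gene Dll4 rose by 2.25 (0.0244), a call lost without the array with no clone named (0.0845), clone I (0.0736) or parental replicate 2 (0.104). The ligand gene Jag1 gave 10.29 and 9.98 against 11.61 and 11.44 and fell (2.62-fold, 0.0175), as did the target Hey2, at 11.95 and 11.26 against 13.58 and 13.31 (3.57-fold, 0.00617). Hes1, a Notch target, gave 13.15 and 12.66 against 13.23 and 13.21 and did not pass (0.439). The call of Jag1 was lost without clone I (0.0653), parental replicate 1 (0.142) or 2 (0.0833), and that of Hey2 without parental replicate 1 (0.071), where 0 members fell.

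Immediate early genes and MAPK feedback genes fell where they changed. Of 22 tested genes of growth factor receptors and MAPK feedback, 6 fell, 0 rose and 16 did not pass (median -0.45). The phosphatase gene Dusp1, induced by growth factors and stress, gave 12.66 and 12.91 against 15.41 and 15.47 (6.31-fold, adjusted p = 0.000154), and its other probe set did not pass (-0.91, adjusted p = 0.473). Egr1 gave 12.01 and 11.66 against 14.55 and 14.21 (5.81-fold, 0.0036) and the AP-1 subunit gene Jun gave 12.44 and 12.16 against 14.24 and 14.02 (3.56-fold, 0.00142). Dusp6, which removes phosphate from ERK, gave 11.74 and 12.00 against 13.63 and 13.73 (3.50-fold, 0.00266). Of the receptor genes, Egfr (-1.05), Met (-1.17), Fgfr1 (0.10) and Igf1r (-0.20) did not pass. With single arrays left out 4 to 6 genes fell, and 1 rose without clone I.

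Of 15 tested IGF axis and imprinted genes 6 rose, 1 fell and 8 did not pass (median 0.78). H19 and the linked growth factor gene Igf2 both rose, Igf2 from 13.80 and 13.70 to 15.33 and 14.36 (difference 1.10, adjusted p = 0.0453). The imprinted genes Mest, Cdkn1c and Grb10 rose with them, Mest at 12.85 and 12.55 against 11.63 and 11.52 (0.0207). Irs1, which encodes a docking protein of the IGF receptor, gave 8.88 and 8.77 against 13.17 and 12.54 and fell 16.4-fold (0.00242). The rises numbered 3 with quantile normalization, with no filter or without the intensity trend. They numbered 2 without the array with no clone named or without either parental array, and the call of Mest was lost without each of them (0.0809, 0.115 and 0.113). Igf2 lost its call without the array with no clone named (0.112), parental replicate 1 (0.181), parental replicate 2 (0.174), clone II replicate 1 (0.062) or clone II replicate 2 (0.0594), Cdkn1c without the array with no clone named (0.15), parental replicate 1 (0.255) or parental replicate 2 (0.0549) and Grb10 without the array with no clone named (0.142), parental replicate 1 (0.172), parental replicate 2 (0.187), clone II replicate 1 (0.0681) or clone II replicate 2 (0.0647). Without the array with no clone named 2 members fell.

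Developmental transcription factor genes included both the largest rises and steep falls. Of 20 tested 3 rose (Pou3f1, Nkx6-1 and Zfp423), 7 fell and 10 did not pass (median -0.31). Hoxa9, a posterior homeobox gene, gave 9.88 and 9.50 against 14.49 and 14.33 (26.4-fold, adjusted p = 2.97e-05), and Hoxa5 gave 9.27 and 8.64 against 13.35 and 13.76 (24.2-fold, 0.000143). Both were bright in parental cells and low on both GLI1 arrays. Hoxa10 fell as well, as did Meis1 and Meis2, which encode partners of Hox proteins, while Hoxa7 (-0.44), Hoxd8 (-0.07) and Wt1 (-0.12) did not pass. The call of Meis2 was lost without parental replicate 1 (0.0625). These counts stayed within 1.5 times with any 1 array left out.

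Of 24 tested axon guidance genes 4 rose, 8 fell and 12 did not pass (median -0.60). Ntn1, the gene of the secreted cue netrin-1, gave 14.69 and 14.33 against 10.32 and 10.45 (17.4-fold higher, adjusted p = 6.48e-05). Its other probe set did not pass (0.61, adjusted p = 0.58). Sema3b, a secreted semaphorin gene, gave 11.77 and 11.39 against 9.46 and 9.08 (4.96-fold higher, 0.00149), while the semaphorin receptor gene Nrp2 gave 8.95 and 8.86 against 12.97 and 12.38 (13.7-fold lower, 0.000482) and Nrp1 fell too. The ephrin gene Efna5 gave 9.60 and 9.10 against 11.62 and 11.90 (5.31-fold lower, 0.00325). Slit2 and Sema3c fell with GLI1 arrays far apart: Slit2, a repulsive cue gene, gave 7.17 and 11.17 against 14.23 and 14.04 (0.0193), and Sema3c gave 5.88 and 9.004 against 12.24 and 12.02 (0.0089). In both the array with no clone named was the lowest of all 6. Slit2 lost its call without parental replicate 1 (0.121) or parental replicate 2 (0.0858), Sema3c without parental replicate 1 (0.0787) or parental replicate 2 (0.0544) and Nrp1 without parental replicate 1 (0.0763). The falls numbered 2 without parental replicate 1. Of 6 tested neural cell markers 1 fell, Map2 (-1.82, 0.00626), and 5 did not pass, and the call of Map2 was lost without parental replicate 1 (0.0666), while 1 marker rose without either clone II array. The defining markers Gfap, Snap25, Nefl, Dcx, Stmn2, Olig2 and Sox10 were below the filter.

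Glucose metabolism genes rose in part. Of 17 tested glycolysis and hypoxia genes 7 rose, 1 fell and 9 did not pass (median 0.97). Hk2, which traps glucose by phosphorylation, gave 12.91 and 11.38 against 7.97 and 8.60 (14.5-fold, adjusted p = 0.00338). Slc2a1, the glucose transporter GLUT1 gene, gave 14.86 and 13.72 against 11.74 and 11.75 (5.83-fold, 0.00316). Ldha, which makes lactate, gave 15.73 and 15.75 against 13.76 and 14.36 (3.20-fold, 0.00373). Pdk1, Pfkl, Bnip3 and Aldoa rose too, whereas Ndrg1, a hypoxia and differentiation gene, gave 10.64 and 9.14 against 13.12 and 13.30 and fell 10.0-fold (0.00625), a call lost without parental replicate 1 (0.0541) or 2 (0.0507). Hk2 and Slc2a1 were highest on the array with no clone named, and of the 17 genes 5 were over 2-fold higher there than on clone I and 0 were over 2-fold lower, where 4.67% of all genes were over 2-fold higher. Pdk1 lost its call without the array with no clone named (0.0719), parental replicate 1 (0.123) or parental replicate 2 (0.0598), Pfkl without the array with no clone named (0.0618) or parental replicate 1 (0.118), Bnip3 without the array with no clone named (0.0836), parental replicate 1 (0.0957) or parental replicate 2 (0.0848) and Aldoa without the array with no clone named (0.0543), clone I (0.0626), parental replicate 1 (0.136) or parental replicate 2 (0.0666). The rises numbered 3 without the array with no clone named or parental replicate 1, and 0 members fell without either parental array.

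Of 22 tested genes of the amino acid and ER stress responses 7 rose, 0 fell and 15 did not pass (median 0.57). Those that rose were Atf4, the factor that induces this response, and Ddit3, Trib3, Asns, Psat1, Slc7a11 and Mthfd2. Mthfd2, a mitochondrial folate enzyme gene, gave 13.08 and 12.92 against 10.62 and 11.03 (4.53-fold, adjusted p = 0.002). Asns, the asparagine synthetase gene, gave 15.71 and 15.39 against 13.78 and 13.56 (3.68-fold, 0.00556), and the serine synthesis gene Psat1 gave 16.09 and 15.88 against 14.45 and 14.33 (3.02-fold, 0.00566). The stress factor gene Ddit3 gave 12.90 and 12.28 against 10.42 and 11.07 (3.59-fold, 0.00909) and lost its call without parental replicate 1 (0.0843). The chaperone genes Hspa5 (0.42), Hsp90b1 (-0.01), Calr (0.05) and Pdia4 (0.14) of the endoplasmic reticulum did not pass. Atf4 lost its call without the array with no clone named (0.13), clone I (0.0968) or parental replicate 1 (0.203), Trib3 without the array with no clone named (0.146), parental replicate 1 (0.139) or parental replicate 2 (0.179) and Slc7a11 without parental replicate 1 (0.0717) or parental replicate 2 (0.0601). The rises numbered 3 without parental replicate 1, and 2 genes fell without the array with no clone named.

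Of 15 tested oxidative stress genes 2 rose, 2 fell and 11 did not pass (median 0.16). Beside each list in this paragraph stand the shares over all genes, 7.34% risen and 7.46% fallen. Gpx2, a glutathione peroxidase gene of epithelia, gave 10.53 and 10.94 against 8.10 and 7.90 (6.65-fold higher, adjusted p = 0.00765), and the ubiquitous Gpx1 gave 14.09 and 13.68 against 15.29 and 15.16 (2.54-fold lower, 0.00822). Gstp1 rose (1.24, 0.0356), a call lost without any 1 of the 4 arrays (0.052 to 0.234), and Gsta4 fell (-1.16, 0.0173), a call lost without clone I or either parental array (0.0745, 0.1 and 0.106). The call of Gpx2 was lost without clone I (0.0511), parental replicate 1 (0.0532) or 2 (0.0514), and that of Gpx1 without parental replicate 1 (0.0802), while the list held 0 risen genes without clone I or either parental array. Of 11 tested p53 target genes 2 rose (Bbc3, 1.11, and Sesn2, 1.52), 1 fell (Ccng1, -0.99) and 8 did not pass, and none of these 3 calls held without the array with no clone named or without either parental array. The other probe set of Sesn2 did not pass (difference 0.22, adjusted p = 0.876). Of 16 cholesterol synthesis genes limma called 0 risen and 0 fallen (1 higher and 3 lower at an unadjusted p under 0.05), and 1 fell without clone I. Of 3 tested endothelial markers limma called 0 (0 at an unadjusted p under 0.05), and of 3 kidney markers 0 (1 higher and 1 lower). Of 3 immune markers Cd14 fell (-2.07, 0.0348), a call lost without any 1 of the 4 arrays (0.0806 to 0.213). The pan-leukocyte gene Ptprc was below the filter.

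Where limma called 0 list members in a direction, the counts at an unadjusted p under 0.05 were small. Lower by that measure were 0 Hedgehog genes, 0 replication genes, 1 mitosis gene, 0 interferon genes and 1 gene of the amino acid and ER stress list. Higher by it were 2 matrix genes, 0 genes of the protease list and 1 gene of the MAPK list. A stricter filter at the 60th percentile, which tests fewer genes, left 0 risen Hedgehog genes, 2 risen medulloblastoma markers, 2 risen epithelial genes and 1 risen developmental transcription factor gene. It left 7 fallen genes of the protease list, 9 of the TGF-beta and BMP list, 2 Wnt genes, 1 chemokine gene and 0 cartilage genes. Without the intensity trend 1 p53 target, 1 oxidative stress gene and 1 kidney marker rose, and 0 p53 targets and 0 immune markers fell. With median centring 0 p53 targets fell, and 1 fibroblast marker and 1 neural marker rose, while with quantile normalization 1 kidney marker rose.

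**Figure D3:**
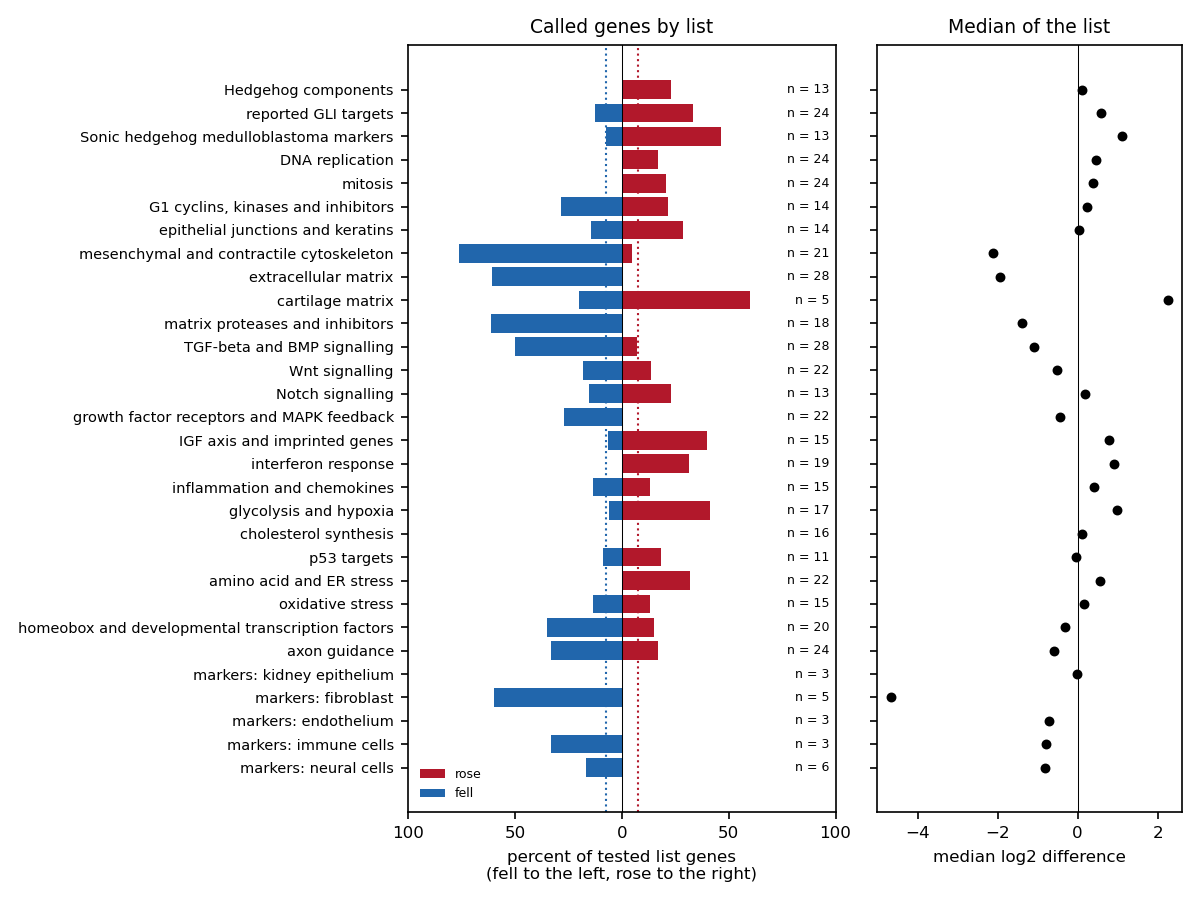
For each gene list, the percent of its tested genes (n at the right) that rose (red, to the right) or fell (blue, to the left) and, in the right panel, the median log2 difference of its tested genes. Dotted lines mark the 7.34% of all genes that rose and the 7.46% that fell; the mesenchymal, protease, matrix, fibroblast and TGF-beta lists reach furthest to the left.

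The 2 GLI1 arrays lay further apart than the parental arrays. Their log2 difference had an SD of 0.65 over tested probe sets, against 0.52 for the parental pair and 0.60 for the clone II pair. More than 2-fold differences were found for 1900 probe sets (10.2%), against 1079 (5.80%) and 1417 (7.60%). With 1 array of each there is no test of these differences, and the replicate numbers and GAPDH ratios (2.09 and 1.45) differ with the clone.

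Interferon-induced genes separated the 2 GLI1 arrays. Interferons are secreted signals that act through receptors at the cell surface to raise antiviral effectors and antigen-processing genes. Of 19 tested genes of this response 16 were higher on clone I than on the array with no clone named, 10 of them by more than 2-fold and 0 by as much the other way, with a median difference of -1.28 (no clone named minus clone I). Over all 10240 genes 2.49% were more than 2-fold higher on clone I, and the median was 0.03. Isg15, a ubiquitin-like modifier gene, gave 14.64 and 16.73 against 13.30 and 13.41, and 16.61 and 16.46 on clone II replicates 1 and 2. Ifit3 gave 11.26 and 15.07 against 9.76 and 10.32 and 14.54 and 14.62 on clone II. Oasl gave 12.59 and 15.78 against 12.44 and 12.35 and 15.63 and 15.59 on clone II. In these genes clone I and both clone II arrays were high together, and the array with no clone named lay between them and the parental arrays.

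**Figure D4:**
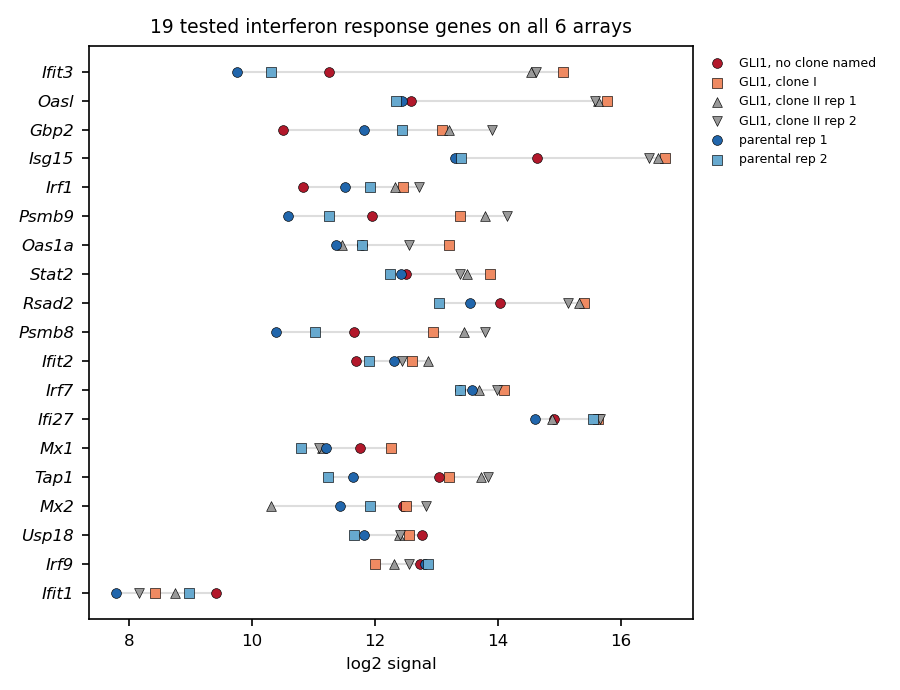
Log2 signal of the 19 tested interferon response genes on all 6 arrays, ordered by the difference between the array with no clone named (red circle) and clone I (orange square). From Ifit3 to Psmb8 the red circle lies more than 1 log2 unit below the orange square; grey triangles are clone II and blue symbols the parental arrays.

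Against parental cells 6 of the 19 interferon genes rose, 0 fell and 13 did not pass (median 0.92). Tap1, the antigen peptide transporter gene, was raised on both GLI1 arrays alike, at 13.05 and 13.21 against 11.64 and 11.24 (3.23-fold, adjusted p = 0.00232). Isg15 (5.03-fold, 0.027), the immunoproteasome genes Psmb9 (3.37-fold, 0.0347) and Psmb8, and Usp18 and Mx1 also rose. The difference of Isg15 ran from 1.28 to 3.38 with single arrays left out. Without the intensity trend 1 rose. Without the array with no clone named 9 rose, and without clone I 3 rose and 1 fell. Leaving out parental replicate 1 or 2 left 1 rise, and Isg15 (0.149 and 0.105) and Psmb9 (0.219 and 0.0737) lost their calls, Psmb9 also without clone I (0.111). Usp18 lost its call without the array with no clone named (0.0786), parental replicate 1 (0.111) or parental replicate 2 (0.134), Psmb8 without clone I (0.135), parental replicate 1 (0.236) or parental replicate 2 (0.0775) and Mx1 without clone I (0.17), parental replicate 1 (0.116), parental replicate 2 (0.218), clone II replicate 1 (0.0645) or clone II replicate 2 (0.0629). The difference of these 2 arrays from clone II was called for 0 of the 19 genes.

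Chemokine and NF-kB genes were also mostly higher on clone I. Of 15 tested, 13 were higher on clone I than on the array with no clone named, 8 of them more than 2-fold. Cxcl10, an interferon-induced chemokine gene, gave 12.48 and 15.96 against 10.77 and 11.22 and rose (9.36-fold, adjusted p = 0.0481), a call lost without parental replicate 1 (0.225), parental replicate 2 (0.135) or either clone II array (0.0591 and 0.0566), with a difference of 1.49 to 4.97 over the settings with 1 array left out. The adhesion gene Vcam1 gave 4.11 and 10.05 against 9.04 and 8.38 and did not pass (0.538). The monocyte chemokine gene Ccl2 gave 6.71 and 9.84 against 6.77 and 6.62 (0.279). Vcam1 was lower on the array with no clone named than on any other array, and its clone II signals were 9.88 and 10.41. Icam1, another adhesion gene, gave 14.79 and 15.44 against 13.40 and 13.34 and rose 3.36-fold (0.00297). Cxcl12, a chemokine gene of stroma, gave 10.71 and 9.98 against 14.46 and 13.90 and fell 14.3-fold (0.000378), and Ptgs2 fell by 2.86 (0.0222). The counts against parental cells were 2 risen, 2 fallen and 11 that did not pass (median 0.42). They were 5 risen without the array with no clone named, 3 fallen without clone I, and 1 risen and 1 fallen without either parental array, where the call of Ptgs2 was lost (0.159 and 0.0832). With no filter, without the intensity trend or fitted on the 4 arrays alone, 1 rose.

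The largest single differences between both arrays are named by size alone. The guanylate-binding protein genes Gbp7 and Gbp4 gave 9.53 and 14.02 and 7.75 and 11.97 on the array with no clone named and clone I, and Rtp3 gave 8.40 and 13.25. Slit2 and Stap2, at 6.999 and 10.53, were higher on clone I too. Higher on the array with no clone named were the proline dehydrogenase gene Prodh (11.58 and 8.12), the retinoic acid hydroxylase gene Cyp26b1 (11.11 and 8.23), the splicing factor gene Srsf3 (10.61 and 7.46), the circadian repressor gene Bhlhe40 (10.32 and 7.41), Rhpn1 (10.59 and 7.80) and the potassium channel gene Kcnq1 (10.21 and 7.44). None of these but Slit2 was called against parental cells. By list, 23 of 24 mitosis genes were higher on clone I, with a median difference of -0.50 and 3 genes over 2-fold, and 18 of 22 genes of the amino acid and ER stress responses were higher on the array with no clone named, 7 of them over 2-fold. Over all 10240 genes 4845 were higher on clone I, and 5395 were higher on the array with no clone named, 4.67% of the 10240 by over 2-fold.

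Set against clone II, the 2 GLI1 arrays differed at 24 of 18625 probe sets (0.129%), of which 21 were higher and 3 lower than clone II, and 1611 had an unadjusted p under 0.05. With median centring 26 were higher and 11 lower, and with quantile normalization 13 and 5. Of the 24, 16 were also called against parental cells. Ccnd2 was higher here than on clone II (13.82 and 14.15), by 2.05 (adjusted p = 0.0371), and on clone II it still lay above both parental arrays. Pou3f1 was higher by 3.96 (0.0436). Flrt1, a leucine-rich transmembrane protein gene, gave 12.41 and 11.13 against 7.25 and 7.58, a rise of 20.4-fold against parental cells (0.002). Its clone II signals of 8.11 and 7.32 were near the parental ones, and the difference from clone II was 4.05 (0.0436). Krt8 was higher by 3.17 (0.0157), with clone II signals of 9.07 and 9.23, below the parental arrays, while here it lay above them.

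Phlda2, an imprinted growth regulator gene, gave 14.44 and 12.95 against 11.10 and 11.93 and 9.78 and 9.22 on clone II, a difference of 4.19 (adjusted p = 0.0371). Rpp25, a subunit gene of RNase P, gave 10.43 and 10.44 against 9.17 and 9.89 and 5.84 and 5.56 on clone II (4.74, 0.0157). Cyp1b1, a monooxygenase gene, gave 13.95 and 12.61 against 11.50 and 12.01 and 10.12 and 10.18 on clone II (3.13, 0.0436). In all of them clone II lay below the parental arrays. Ogn was lower here than on clone II (11.78 and 11.63), a difference of -3.98 (0.00177). Dtx4, a Notch-linked ubiquitin ligase gene, gave 8.47 and 8.29 against 9.29 and 9.65 and 11.57 and 11.79 on clone II (-3.30, 0.0157). The complement gene C3 gave 7.35 and 8.28 against 6.99 and 7.80 and 14.64 and 13.58 on clone II, a difference of -6.30 (0.00722), so that its high signal was found on the clone II arrays and not on these. The count of 24 depends on single arrays: it was 94 without clone I, 1 without the array with no clone named, 3 without either parental array, 10 without clone II replicate 1 and 3 without clone II replicate 2. Without the array with no clone named, Ccnd2 (0.135), Pou3f1 (0.288), Flrt1 (0.228), Krt8 (0.091), Phlda2 (0.133), Rpp25 (0.133), Cyp1b1 (0.133), Dtx4 (0.103) and C3 (0.091) lost the call. Ccnd2, Flrt1, Krt8, Phlda2, Cyp1b1 and Dtx4 also lost it without either parental array or either clone II array (0.054 to 0.135). Pou3f1 lost it without any 1 array, and Rpp25 also without either parental array or clone II replicate 2 (0.0572 to 0.0767). Ogn kept it without any 1 array, and C3 without any other.

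**Figure D5:**
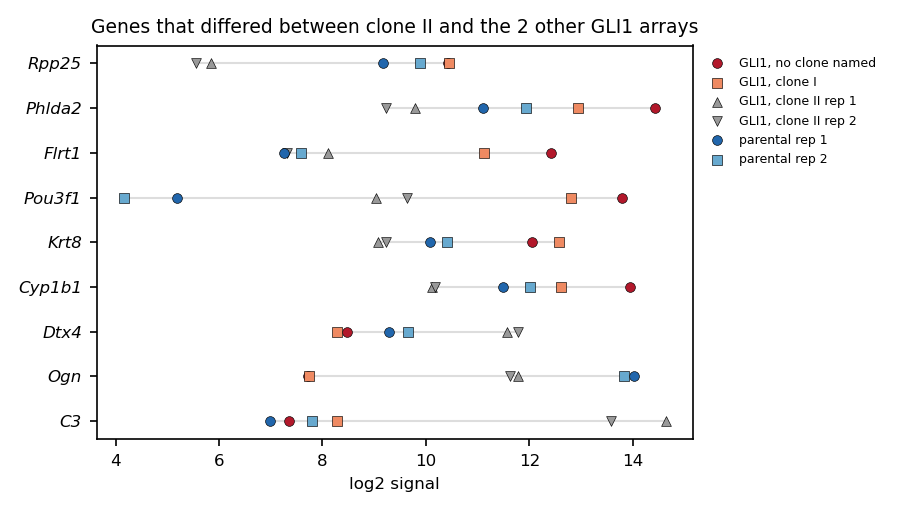
Log2 signal on all 6 arrays of the 9 genes chosen by the size of their difference between clone II (grey triangles) and the 2 other GLI1 arrays (red circle and orange square), with the parental arrays in blue. Clone II lies lowest for Rpp25, Phlda2, Krt8 and Cyp1b1 and highest for Dtx4 and C3.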

How the data were processed

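RNA was measured on 6 arrays of 1 Affymetrix rat design, 2 for each group named in the titles. The deposited values are intensity values, 1 linear signal per probe set, which per the submitters' processing notes the authors computed with MAS5. The array's genome build and the numbers behind each signal are not given in the sources used here. Signals were floored at 1 and converted to log2 from the deposited intensity, with no further scaling. Of 31042 probe sets besides 57 controls, the 18625 whose mean log2 over 6 arrays exceeded 8.33, their 40th percentile (signal 322), entered the test with limma 3.58.1 in R 4.3.3 (lmFit, then eBayes with an intensity trend, two-sided) in a model of 3 groups with 3 residual degrees of freedom, and p-values were adjusted by Benjamini-Hochberg over all of them. Both comparisons share arrays and this estimate of spread. The code was tested on simulated data. The platform annotation gave 1 gene symbol to 20826 probe sets, several to 436 and none to 9780, and 20758 symbols matched RefSeq. A gene is represented by its probe set of highest mean.

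Named genes are Gli1 and the measured Hedgehog genes, the 12 largest called rises and falls, per list the 4 or fewer calls with the lowest adjusted p, with up to 2 of the rarer direction, and up to 6 genes each way between these arrays and clone II and between the array with no clone named and clone I, each above the 60th percentile (10.17) in the brighter group where chosen by size. Other list members appear as examples and were chosen after their values were seen. The comparison, its members and the lists were chosen with earlier results of these data known. Some items are not reported here. Alternatives were filters, scaling, offset, trend, arrays left out, a replicate block and a fold minimum.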

Additional observations from a re-analysis of the deposited data

Results flagged for a closer look

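For 10 named genes the test of the difference between these 2 GLI1 arrays and clone II passed limma's adjusted threshold. Higher than on clone II were 7 of them, by log2 differences of 4.735 for Rpp25, 4.192 for Phlda2, 4.051 for Flrt1, 3.964 for Pou3f1, 3.169 for Krt8, 3.131 for Cyp1b1 and 2.051 for Ccnd2. Ogn differed by -3.978, Dtx4 by -3.298 and C3 by -6.298. Each direction was shared by both arrays against both clone II arrays. Ogn kept its call under every alternative run for it, while C3 lost it without the array with no clone named, and the other 8 lost it under several. The clone of the first array is not stated, so clone and array cannot be told apart.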

How the results depend on the processing

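With 2 arrays a group, counts of calls moved with single arrays. The rises against parental cells ranged from 315 to 915 and the falls from 317 to 1187 with 1 array left out, and the probe sets called against clone II from 1 to 94. Without both arrays of high GAPDH ratio (parental replicate 1, clone II replicate 1) these counts were 287, 312 and 7. Without the intensity trend 638 rose, 959 fell and 4 differed from clone II. The count against clone II was 11 with no filter, 4 with the 60th percentile filter and 37 with median centring, which moved the median of all probe sets from 0.01 to -0.12 there and from 0.02 to 0.11 against parental cells. The titles' replicate numbers are only shared, since the titles tie no number to a shared culture or day; rep 1 minus rep 2 correlated at r = 0.068 between these GLI1 arrays and the parental arrays, 0.104 with clone II, and 0.321 between parental and clone II arrays. With the replicate block 1523 rose, 1701 fell and 89 differed from clone II. Genes that did not pass changed sign. Stk36 gave 0.062 with median centring, 0.072 with quantile normalization and 0.153 without the 2 arrays of highest GAPDH ratio. With 1 array left out the differences ranged from -0.099 to 0.309 for Sufu, -0.447 to 0.471 for Boc, -0.218 to 0.153 for Stk36, -0.021 to 0.457 for Kif7, -0.296 to 0.514 for Spop and -0.045 to 0.882 for C3 against parental cells. The causes were not tested. Of the 109 named genes called against parental cells, 18 lost the call without the intensity trend. A larger number lost it without either parental array, and 0 changed sign under any alternative run. For the settings with arrays left out the sign could not change. In called probe sets the GLI1 arrays did not overlap the parental arrays.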
